A study of Mus musculus with 2 samples.

Results

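Ephrins, semaphorins, Slits and netrins are guidance ligands, first known from axons, that tell a cell or its process where to go. This account covers 61 mouse genes of these systems out of 19937 genes named on the arrays. They were taken by symbol: all Eph receptors, ephrins, semaphorins and plexins with a probe set of a single gene, plus Nrp1, Nrp2, Robo1, Robo2, Slit1, Slit2, Slit3, Ntn1, Ntn4, Unc5b and Unc5c. Of these, 33 encode ligands and 28 encode receptors. Ephb2 was not analysed here.

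The RNA came from medullary thymic epithelial cells (mTEC) of B6 mice aged 6 weeks, measured on Affymetrix whole-transcript arrays. The control group, labelled WT, was HDAC3fl/fl without Cre, and the other, labelled HDAC3cKO, was HDAC3fl/fl Foxn1-Cre, so both carried the floxed alleles. HDAC3 is a histone deacetylase of corepressor complexes, and Foxn1 is active in thymic epithelium in general, cortical as well as medullary. Cells were sorted as EpCAM+, CD45-, Ly51low and MHC-II low, about 30000 to an extraction, with 10 to 30 mice as the usual pool for the group labelled HDAC3cKO. There was 1 array per genotype, so values carry no replicate error and the genotypes could not be tested against each other. Levels below are log2 RMA intensities, in which a step of 1 is 2-fold, and where they stand as a pair the array labelled WT comes first. Differences are the log2 level on the array labelled HDAC3cKO minus that on the array labelled WT. Levels of different genes are not compared, because each comes from its own probes.

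Across all named genes the median difference was 0.01. Hdac3 itself, at 10.90 on the array labelled WT against 11.64 on that labelled HDAC3cKO, was not lower on the latter. The exons that its probes cover were not examined here. Each direction below therefore rests on the labels alone. All 14 markers fixed for medullary epithelium were above the 95th percentile of 1194 olfactory and vomeronasal receptor genes on both arrays, a level used here as a rough mark of background. Of all 19937 named genes, 14192 were above this mark on both arrays. The median difference of the 14 markers was -0.43, and 5 of the 14 were lower by at least 2-fold, beside 5.88% of all named genes. These were Fezf2 at -2.97, Cldn3 at -1.39, Krt14 at -1.36, Cldn4 at -1.16 and Tnfrsf11a at -1.13. Another 5 were above 0: Krt18 at 0.85, Krt5 at 0.40, Ltbr at 0.37, Krt8 at 0.23 and Foxn1 at 0.13. Summed over the list, intensity was 55394 on the array labelled WT against 56753 on that labelled HDAC3cKO. Such a sum is set mostly by the genes of highest intensity, here Krt8, Krt18 and Krt5, so it does not describe the other markers. Epcam, the sort marker, was at 11.33 and 11.06. Ptprc, the gene of the CD45 antigen that the gate excluded, was at 9.63 and 8.79, above that mark on both arrays.

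Ephrins are membrane-bound ligands of the Eph receptor tyrosine kinases, and contact between the cells that carry them can send signals into both. Ephrin-A ligands are held by a lipid anchor and mostly bind EphA receptors, whereas ephrin-B ligands cross the membrane and mostly bind EphB receptors. Semaphorins are secreted or membrane-bound and signal through plexins, with neuropilins as coreceptors for most secreted ones. Slits are secreted repellents read by Robo receptors, and netrins can repel cells through Unc5 receptors. In the thymus, ephrin-B and EphB proteins take part in building the epithelial network, and the pair of semaphorin 3E and plexin-D1 guides thymocytes towards the medulla.

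The 4 largest differences among the 61 genes were those of Robo2, Efna3 and Slit2, lower on the array labelled HDAC3cKO, and of Efna1, which was higher. The bases upstream of their most distal RefSeq transcription start are printed because these genes set the extremes of the group and because Efna1 and Efna3, which are direct neighbours, went opposite ways. The sequences are from RefSeq (build GRCm38.p6), 250 bases each, 5′ to 3′ on the strand of the gene. Capitals mark TGGGAA, the core bound by the Notch effector RBPJ, and AGGTCA, a half-site of nuclear receptors, each searched on both strands. Both kinds of factor are known to recruit corepressors that contain HDAC3.
Efna1, chr3:89280952-89281201, minus strand: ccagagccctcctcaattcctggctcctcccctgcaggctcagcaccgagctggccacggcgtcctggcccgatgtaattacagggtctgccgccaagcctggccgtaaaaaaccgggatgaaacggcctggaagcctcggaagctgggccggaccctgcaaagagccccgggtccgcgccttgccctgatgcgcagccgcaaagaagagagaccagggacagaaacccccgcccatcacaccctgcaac
Efna3, chr3:89322940-89323189, minus strand: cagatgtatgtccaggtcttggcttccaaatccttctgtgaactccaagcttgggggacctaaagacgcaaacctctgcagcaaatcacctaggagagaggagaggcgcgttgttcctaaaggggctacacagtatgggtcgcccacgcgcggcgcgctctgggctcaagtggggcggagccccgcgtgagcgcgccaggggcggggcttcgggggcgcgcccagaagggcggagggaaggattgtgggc
Slit2, chr5:47982905-47983154, plus strand: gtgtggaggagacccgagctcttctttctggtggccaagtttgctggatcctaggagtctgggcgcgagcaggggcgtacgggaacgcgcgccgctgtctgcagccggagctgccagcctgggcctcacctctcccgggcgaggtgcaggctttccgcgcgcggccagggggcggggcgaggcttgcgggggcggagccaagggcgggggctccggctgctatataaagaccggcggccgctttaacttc
Robo2, chr16:75447294-75447543, minus strand: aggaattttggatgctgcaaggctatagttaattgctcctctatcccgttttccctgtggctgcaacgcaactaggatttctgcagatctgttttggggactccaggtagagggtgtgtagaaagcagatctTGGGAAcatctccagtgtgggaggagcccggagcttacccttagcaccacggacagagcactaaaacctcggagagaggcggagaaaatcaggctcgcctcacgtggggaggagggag
Of these windows, only that of Robo2 held a TGGGAA, and none held an AGGTCA. Efna1 and Efna3 had 2 starts each, Robo2 had 3 and Slit2 had 1. The windows of the starts not printed held neither motif. Among all 32851 RefSeq windows of this length, 21.6% held TGGGAA and 14% held AGGTCA. For the 53 guidance genes with an entry, 12 of 69 windows (17.4%) held TGGGAA and 9 (13%) held AGGTCA. A match describes these letters only and is no binding site. The windows of Efna1 and Efna3 had 64.8% and 63.6% G and C, against a median of 52.4% over all windows, and that of Slit2 had 69.6%. The printed window of Robo2, with 53.2%, lay near that median, but those of its other starts had 44.8% and 65.6%. The other windows of Efna1 and Efna3 had 64.4% and 70.4%.

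As a group the guidance genes showed no common direction. The median difference was -0.0021, with 30 of 61 genes above 0 and the other 31 below. On the array labelled HDAC3cKO, Efna1 was the 1 gene higher by at least 2-fold, beside 2.97% of all named genes. The 6 genes at least 2-fold lower (9.84%) were Robo2, Efna3, Slit2, Sema5a, Unc5c and Sema4a, beside 5.88% of all named genes. Of the 61, 60 were above the receptor-gene mark on at least 1 array, beside 15180 of all 19937 named genes. Among all genes that passed this filter, 3.88% were higher and 7.52% lower by at least 2-fold, beside 1.67% and 10% of the 60 members. The members' share on the low side was thus close to the background. Passing on 1 array alone favours a gene that is high there, so the difference of such a member is partly selected for. The guidance genes past 2-fold were above the mark on both arrays. Epha6, at 5.86 and 5.04, was below the mark on both arrays, and Epha3 and Plxnb3 were above it on 1 array each.

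At the 1.5-fold threshold, 10 guidance genes were higher (16.4%) and 15 lower (24.6%), beside 8.33% and 11.2% of all named genes. Among genes above the receptor-gene mark on at least 1 array those background shares were 10.7% and 14%. The 60 members above it, which leave out Epha6, gave 16.7% and 23.3%. At 4-fold, a threshold added after the values were seen, 1 gene was higher and 3 were lower, beside 0.386% and 1.85% of all named genes. The highest members short of 2-fold were Sema3f at 0.96, Efna5 at 0.89 and Sema3c at 0.86. On the low side, Sema5a at -1.26, Unc5c at -1.15 and Sema4a at -1.13 lay just inside, and Sema4d at -0.93, Plxna2 at -0.92 and Plxnc1 at -0.90 just outside.

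**Figure D1:**
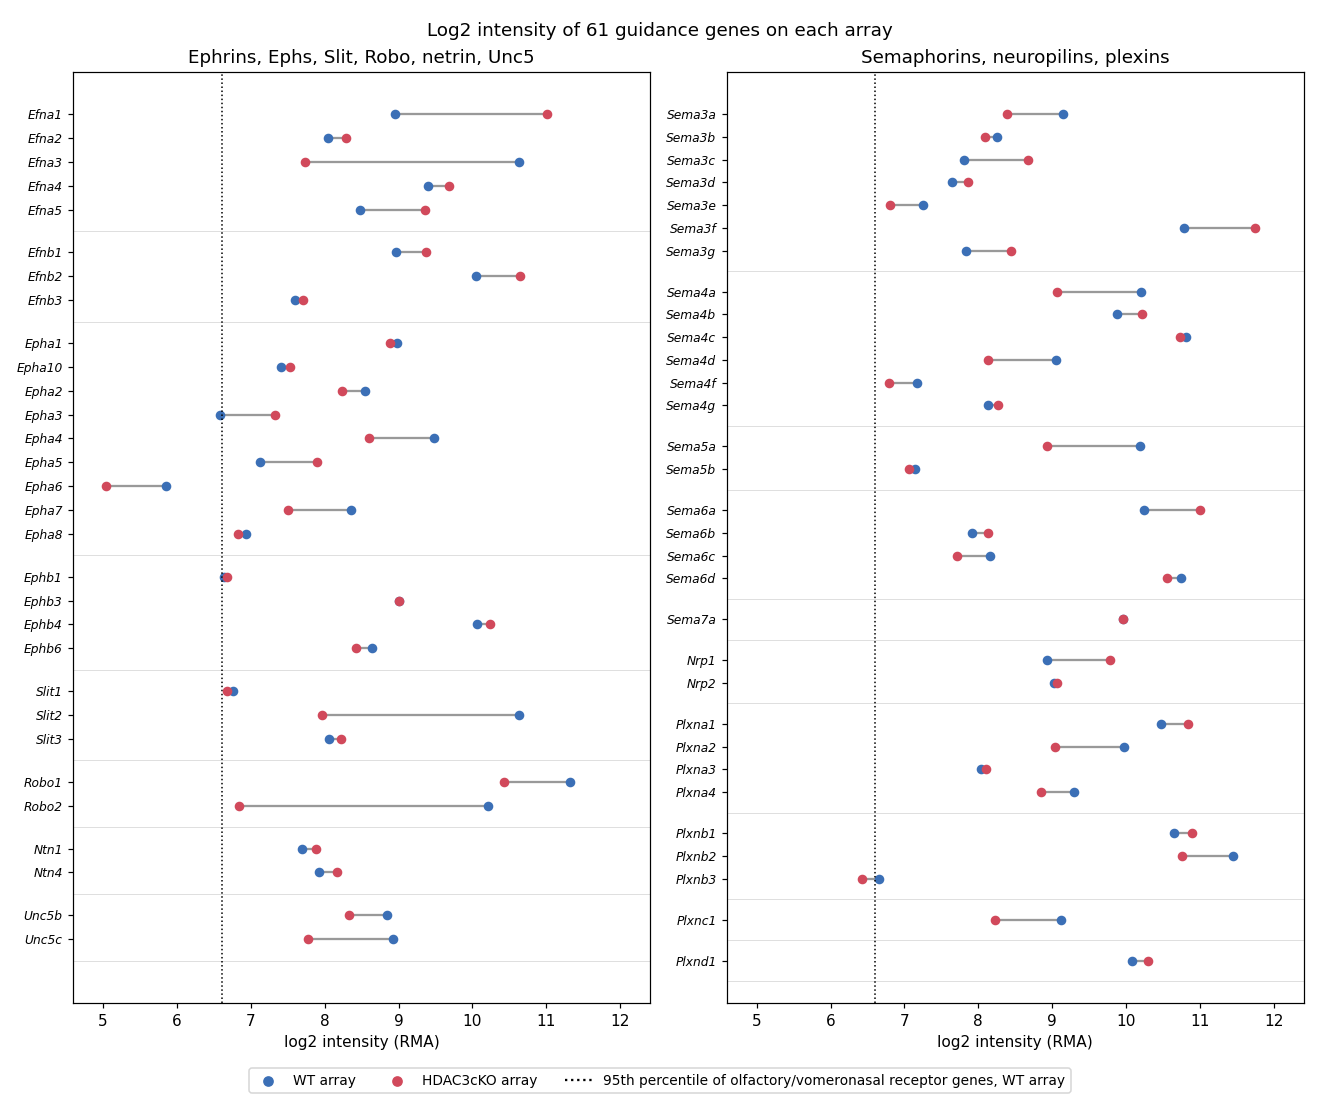
Log2 intensity (x axis) of the 61 guidance genes, 1 row each, on the array labelled WT (blue) and the array labelled HDAC3cKO (red), grouped by family. The dotted line is the 95th percentile of olfactory and vomeronasal receptor genes on the array labelled WT. Long bars mark Efna1, Efna3, Slit2 and Robo2, while most pairs of points lie within 1 unit of each other.

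**Figure D2:**
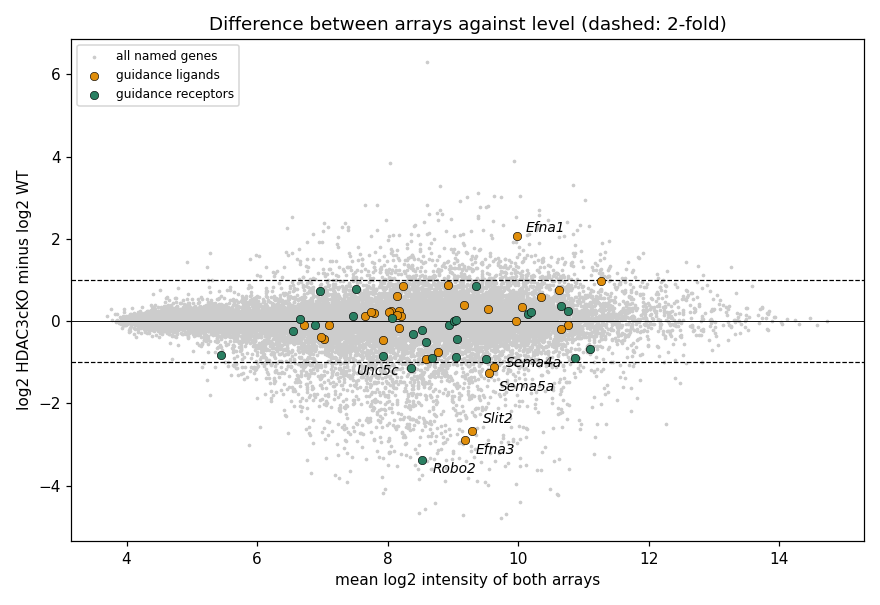
Difference between the arrays (y axis, log2) against the mean log2 intensity of both (x axis) for all 19937 named genes (grey), the 33 guidance ligands (orange) and the 28 guidance receptors (green). Dashed lines mark 2-fold, and the 7 labelled guidance genes lie beyond them.

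The ephrin-A ligands held the 2 most opposed values of the ephrin and Eph system. Efna1, which encodes a ligand of EphA2 common in epithelium and in vessels, was at 8.95 on the array labelled WT against 11.00 on that labelled HDAC3cKO. It was thus 4.16-fold higher, the highest difference of the 61. Efna3, another lipid-anchored ligand of EphA receptors, was at 10.63 and 7.73, or 7.44-fold lower. Efna5, a ligand of several EphA receptors, was at 8.48 and 9.36, or 1.85-fold higher. Efna2 and Efna4 differed by 0.24 and 0.28. Of the 5 ephrin-A genes, 4 were therefore on the high side and Efna3 alone on the low side.

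The 3 ephrin-B ligands were all slightly higher, none by 2-fold. Efnb2, a marker of arterial endothelium that thymic epithelium also uses, was at 10.05 and 10.64, a difference of 0.59. Efnb1, which acts with Efnb2 in thymic epithelial organisation, was at 8.97 and 9.37. Efnb3 differed by 0.12. Their EphB receptors differed little: Ephb3 was at 9.01 on both arrays, and Ephb4, the main receptor of ephrin-B2 in veins, at 10.06 and 10.23. Ephb1 differed by 0.04 and Ephb6, whose kinase domain is inactive, by -0.22.

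None of the 9 EphA receptors differed by 2-fold, and their median was -0.11. Epha4, a receptor that binds ephrins of both classes and is needed for normal thymic epithelium, was at 9.48 on the array labelled WT against 8.61 on that labelled HDAC3cKO, or 1.84-fold lower. Epha7, a further receptor of ephrin-A ligands, was at 8.36 and 7.51, or 1.80-fold lower. On the opposite side, Epha5 was at 7.12 and 7.90, or 1.71-fold higher, and Epha3 at 6.59 and 7.32, or 1.66-fold higher. Epha2, an epithelial receptor of ephrin-A1, differed by -0.31. Epha1, the founding member of the receptor family, differed by -0.10, Epha8 by -0.11 and Epha10 by 0.12. Epha6 differed by -0.82 at levels below the receptor-gene mark. The ligand Efna1 and its receptor Epha4 thus lay on opposite sides of 0, at 2.06 and -0.88.

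The opposed ephrin-A genes are neighbours. In RefSeq gene order on chromosome 3, Efna1, Efna3 and Efna4 follow each other with no other protein-coding gene between them. The 3 genes differed by 2.06, -2.90 and 0.28. Of the 10 nearest protein-coding genes around Efna3, 5 on each side, all were measured and 9 differed by less than 2-fold, the exception being Efna1. Among all 19937 named genes, 18171 differed by less than 2-fold, so most genes anywhere would do so. Slc50a1, a sugar transporter gene on the far side of Efna1, differed by 0.40, and Adam15, a membrane metalloproteinase gene beyond Efna4, by 0.66.

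Slit and Robo genes included the lowest receptor value of all. Robo2, a receptor of Slit ligands, was at 10.20 on the array labelled WT against 6.84 on that labelled HDAC3cKO, or 10.3-fold lower. The second value is close to the receptor-gene mark of 6.53 on that array, and a fold against a level so near background understates the difference. Slit2, a secreted ligand of both Robo receptors, was at 10.62 and 7.96, or 6.34-fold lower. Robo1, the other receptor of the group, was at 11.32 and 10.43, or 1.85-fold lower. Slit3, a ligand also made by fibroblasts, was at 8.06 and 8.22, and Slit1, a mainly neuronal ligand, at 6.77 and 6.67. Ligand and receptor were both past 2-fold in 1 of the 29 ligand and receptor pairs considered, that of Slit2 and Robo2.

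Robo1 and Robo2 are also neighbours, on chromosome 16, and both were lower. Of the 10 nearest protein-coding genes around Robo2, 8 were measured, and 7 of them differed by less than 2-fold. The exception was Hspa13, a chaperone gene of the HSP70 family, which was 1.05 higher, a direction opposite to that of Robo2. Around Slit2 all 10 nearest genes were measured, and they differed by between -0.27 and 0.54. The low values of Robo2 and Slit2 were not shared by the genes next to them, apart from Robo1. Since 18171 of all 19937 named genes differed by less than 2-fold, these counts are not particular to the 2 places.

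**Figure D3:**
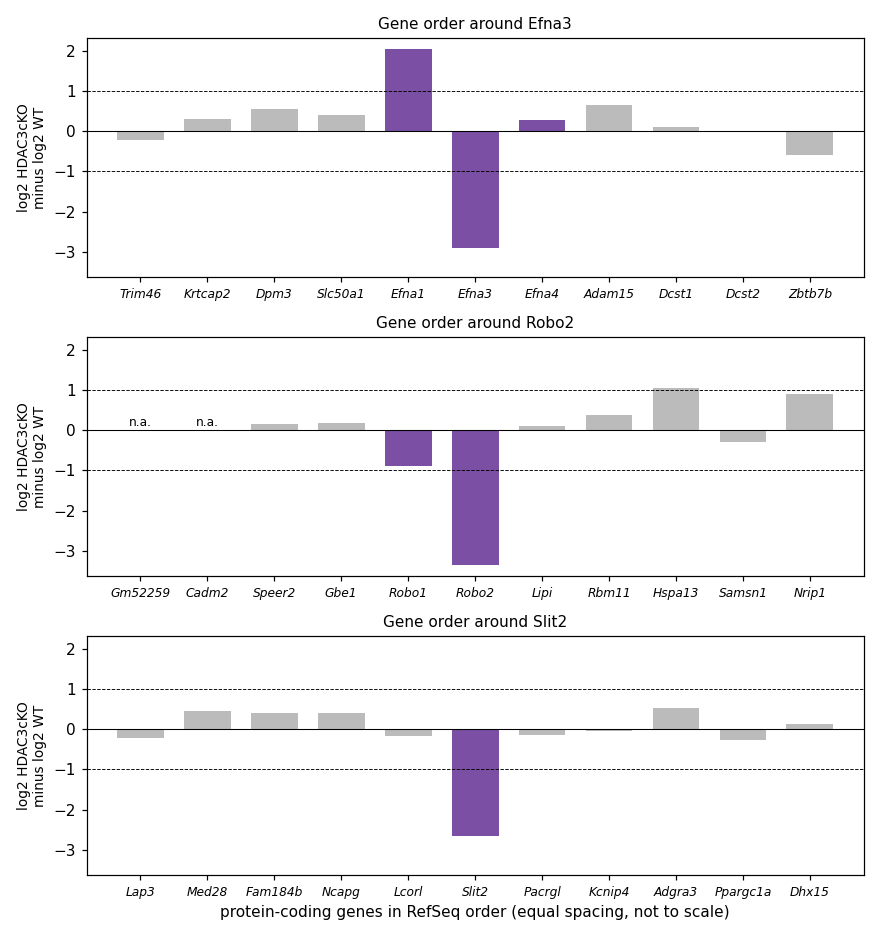
Difference between the arrays (y axis, log2) for Efna3, Robo2 and Slit2 and the 5 protein-coding genes on each side in RefSeq order (x axis, equal spacing). Purple bars are guidance genes, grey bars other genes, n.a. marks genes not analysed here, and dashed lines mark 2-fold. Efna1 and Efna3 stand side by side at 2.06 and -2.90.

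Semaphorins were split. Of 20 genes, 8 were above 0 and 12 below. Their median was -0.09, and 2 genes were lower by at least 2-fold, beside 5.88% of all named genes. Sema5a, a membrane semaphorin with thrombospondin repeats, was at 10.19 on the array labelled WT against 8.93 on that labelled HDAC3cKO, or 2.40-fold lower. Sema4a, a membrane semaphorin that costimulates T cells and is made by dendritic cells as well, was at 10.19 and 9.07, or 2.19-fold lower. Sema5b, the relative of Sema5a, differed by -0.09.

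Class 3 semaphorins, the secreted ones, went both ways, with none past 2-fold. Sema3f, a ligand of neuropilin-2, was at 10.78 and 11.74, or 1.95-fold higher. Sema3c, which acts through both neuropilins, was at 7.81 and 8.67, or 1.81-fold higher, and Sema3g, a semaphorin of arterial endothelium, at 7.84 and 8.44, or 1.52-fold higher. Against these, Sema3a, the classical repellent ligand of neuropilin-1, was at 9.14 and 8.39, or 1.68-fold lower. Sema3e, the ligand of plexin-D1 in the thymic medulla, was at 7.24 and 6.80, a difference of -0.44. Sema3d and Sema3b differed by 0.22 and -0.16. Sema3d and Sema3a, next to each other on chromosome 5, lay on opposite sides of 0.

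Among class 4 semaphorins, which span the membrane, Sema4d came nearest to Sema4a. Sema4d, a semaphorin of T cells that binds plexin-B1, was at 9.05 and 8.13, or 1.90-fold lower. A second probe set of Sema4d differed by less, -0.34. Sema4f differed by -0.39, and Sema4c, a ligand of plexin-B2, was at 10.81 and 10.73. Sema4b and Sema4g differed by 0.34 and 0.13. In class 6, Sema6a, a ligand of plexin-A2 and plexin-A4, was at 10.24 and 10.99, or 1.69-fold higher. Sema6d, a ligand of plexin-A1, was at 10.75 and 10.55, while Sema6b differed by 0.22 and Sema6c by -0.46. Sema7a, a lipid-anchored semaphorin that binds plexin-C1, was at 9.96 on both arrays.

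Plexins, the signalling receptors of semaphorins, had no member past 2-fold among 9, and 5 of them were below 0. Plxna2 was at 9.96 on the array labelled WT against 9.04 on that labelled HDAC3cKO, or 1.89-fold lower, opposite to its ligand gene Sema6a. Plxnc1, the receptor of semaphorin 7A, which leukocytes also carry, was at 9.12 and 8.22, or 1.87-fold lower. Plxnb2, a receptor of class 4 semaphorins in epithelium, was at 11.44 and 10.76, or 1.60-fold lower. Plxna4, a further class 6 receptor, differed by -0.44 and Plxnb3 by -0.23. On the high side, Plxna1 differed by 0.36, Plxnb1 by 0.25, Plxnd1 by 0.21 and Plxna3 by 0.07. Plxnd1 was at 10.08 and 10.29.

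The neuropilins differed from each other. Nrp1, which serves class 3 semaphorins and VEGF and is carried by endothelium and dendritic cells, was at 8.93 and 9.78, or 1.80-fold higher. Nrp2, the coreceptor of Sema3f, was at 9.02 and 9.06. Sema3a and its coreceptor Nrp1 thus lay at -0.75 and 0.85, whereas Sema3c and Nrp1 both lay on the high side, at 0.86 and 0.85.

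Of the 61 genes, the netrins Ntn1 and Ntn4 lay slightly above 0 and the Unc5 receptors Unc5b and Unc5c below it. Outside the 61, netrin genes went both ways, with Ntn5 at 0.35, Ntn3 at -0.24 and Ntng1 at -0.13. Unc5c, a receptor for repulsion by netrin-1, was at 8.93 on the array labelled WT against 7.78 on that labelled HDAC3cKO, or 2.22-fold lower. Unc5b, the Unc5 receptor of vessels, was at 8.85 and 8.33, a difference of -0.51. Ntn1 was at 7.70 and 7.88, and Ntn4, a netrin of basement membranes, at 7.93 and 8.17. Over all guidance ligands the median difference was 0.13, with 18 of 33 above 0, and over all receptors it was -0.16, with 12 of 28 above 0.

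**Figure D4:**
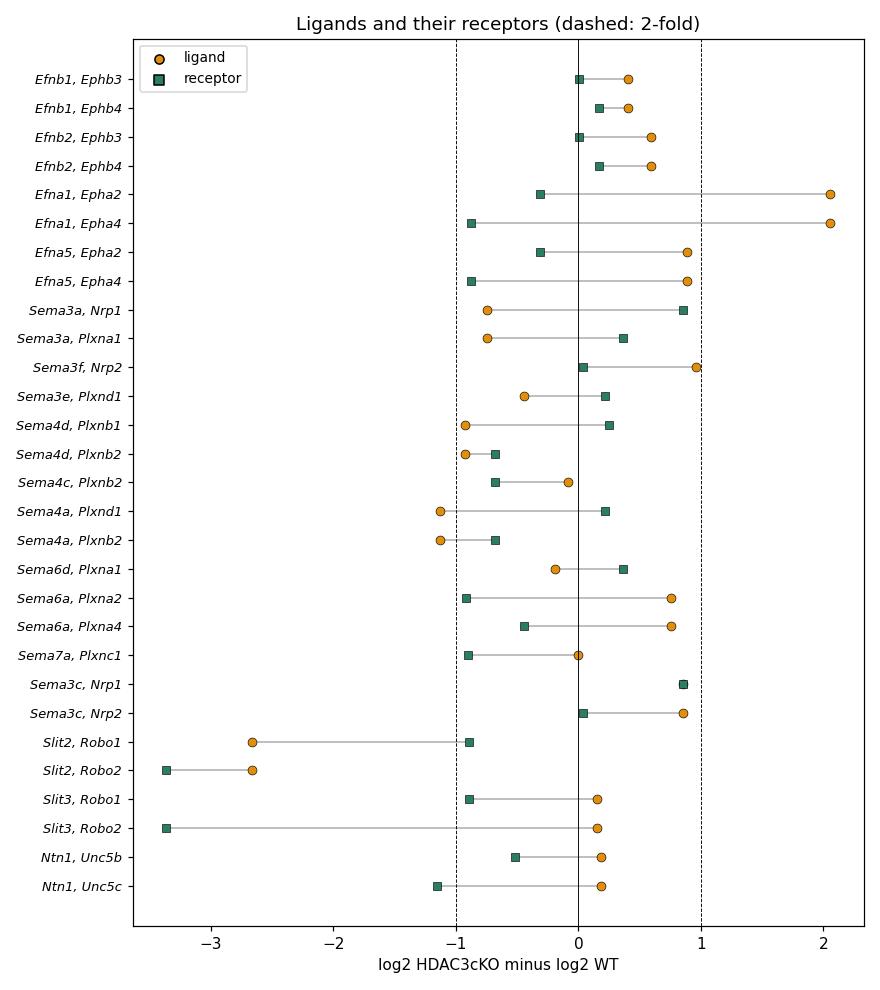
Difference between the arrays (x axis, log2) of the ligand (orange circle) and the receptor (green square) in 29 ligand and receptor pairs. A gene can stand in several rows, and dashed lines mark 2-fold. Slit2 and Robo2 lie together on the far left, at -2.66 and -3.37, and Efna1 lies far right of its receptors Epha2 and Epha4.

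Further guidance genes outside the 61 were counted from lists chosen by function. Of 19 measured receptors and ligands, whose median was -0.08, 1 was higher and 2 were lower by at least 2-fold. The shares over all named genes were 2.97% and 5.88%. Neo1, the netrin and RGM receptor neogenin, was at 10.21 and 11.30, or 2.13-fold higher. L1cam, an adhesion molecule that serves as coreceptor for semaphorin 3A, was at 9.93 and 7.50, or 5.40-fold lower. Cd72, a B cell receptor of semaphorin 4D, was at 9.57 and 7.19, or 5.21-fold lower. The endothelial Robo receptor gene Robo4 was at 8.14 and 9.13, just short of 2-fold higher and opposite in direction to Robo1 and Robo2. On the low side, Unc5d, at 7.76 and 6.76, was also just short of 2-fold. Unc5a differed by -0.68 and Dcc by -0.67, with Dcc below the receptor-gene mark on the array labelled HDAC3cKO.

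The 30 measured intracellular and shedding genes had a median of 0.03. By at least 2-fold, 1 was higher and 1 lower, beside 2.97% and 5.88% of all named genes. Srgap1, whose product binds Robo receptors inside the cell, was at 10.06 on the array labelled WT against 8.62 on that labelled HDAC3cKO, or 2.70-fold lower. The other genes of its family, Srgap2 and Srgap3, differed by 0.48 and 0.19. Rnd1, a small GTPase that binds plexins, was at 8.09 and 9.16, or 2.11-fold higher.

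Markers of several cell types differed between the arrays in the same comparison. In pooled RNA, fewer cells of a type and less RNA per cell cannot be told apart. All 8 tuft cell markers and all 7 measured markers of cornified cells were lower by at least 2-fold, beside 5.88% of all named genes. The list medians were -3.56 and -3.52. The second is the value of Lor, which at 6.38 was below the receptor-gene mark on the array labelled HDAC3cKO, so its difference there is against background. Summed over the list, tuft marker intensity was 28417 on the array labelled WT against 2101 on that labelled HDAC3cKO. Robo2, Efna3 and Slit2, with differences of -3.37, -2.90 and -2.66, had the same direction as these lists, and the part of these cells in their values was not tested.

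Endothelial markers went the opposite way. All 12 were above 0, 7 of them by at least 2-fold, beside 2.97% of all named genes. The median was 1.04, and their intensities summed to 9443 on the array labelled WT against 19577 on that labelled HDAC3cKO. Of 9 guidance genes that endothelium is known to make, 8 were above 0, with a median of 0.59. Among all 19937 named genes, 10175 were above 0. The list of 9 was chosen with earlier results of these data known. Those 8 were Efna1, Sema3f, Nrp1, Sema3g and Efnb2, and, nearer to 0, Plxnd1 at 0.21, Ephb4 at 0.17 and Nrp2 at 0.04. The exception was Unc5b. Efna1, at 2.06, exceeded all endothelial markers of the list but Emcn, at 2.20. Of 5 mesothelial markers, 4 were higher by at least 2-fold, beside the same 2.97%, and Msln differed by -0.41, with a median of 2.06. The sort gate was set for EpCAM+ cells. All 12 endothelial markers were above the receptor-gene mark on both arrays, beside 14192 of all 19937 named genes, so passing this mark is not particular to them. The part of endothelial cells in the guidance values was not tested.

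Fibroblast markers had a median of 0.80, with 8 of 10 above 0 and a summed intensity of 7742 and 18330. Dcn, at 11.84 and 13.29, gave the largest part of both sums. The 10 guidance genes known from fibroblasts had a median of -0.80, and 3 of them, Robo2, Slit2 and Sema5a, were lower by at least 2-fold, beside 5.88% of all named genes. Another 4 of the 10 were above 0: Sema3c at 0.86, Epha3 at 0.73, Sema3d at 0.22 and Slit3 at 0.16. The part of fibroblasts in these values was not tested. Macrophage and dendritic cell markers all lay below 0, 12 of 12, with a median of -0.90 and summed intensities of 15022 and 6200. Thymocyte markers had a median of -0.54. Of 5 guidance genes that blood cells make, Sema4a, Sema4d and Plxnc1 lay between -1.13 and -0.90, Sema7a was at -0.0021 and Plxnd1 at 0.21. The part of blood cells in those 3 lower values was not tested. Markers of pericytes and smooth muscle had a median of -0.65. Among nerve support markers, of which 4 were measured, the median was -0.01, and S100b and Cdh19 were below the receptor-gene mark on both arrays.

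**Figure D5:**
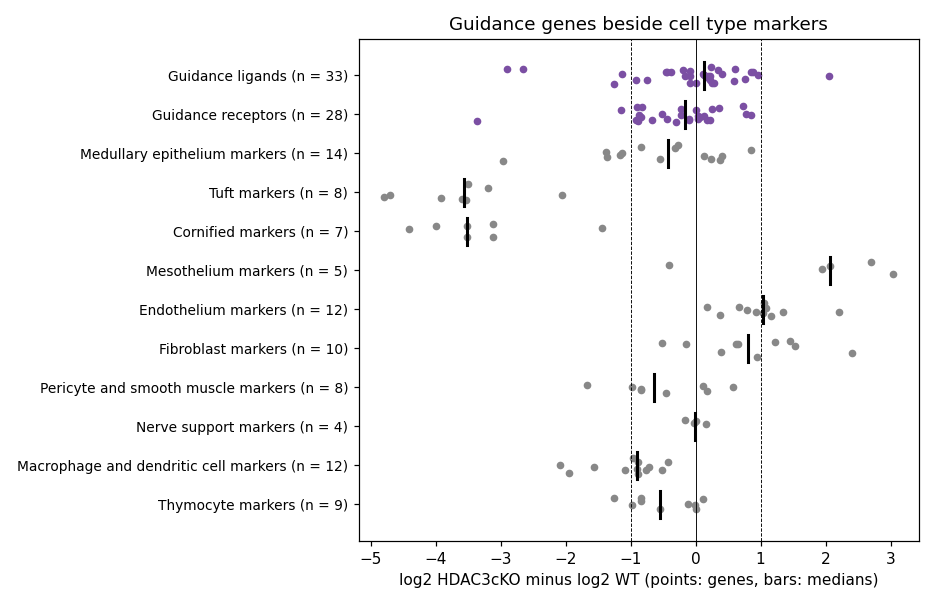
Difference between the arrays (x axis, log2) of each guidance ligand and receptor (purple points) and each marker of 10 cell type lists (grey points), with list medians as black bars and 2-fold as dashed lines. Tuft and cornified medians lie at -3.56 and -3.52, the endothelial median at 1.04, and the guidance ligands and receptors centre near 0 with Robo2, Efna3, Slit2 and Efna1 set apart.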

How the data were processed

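The deposited table held 1 linear intensity per probe set and array, made by the authors with RMA per the submitters' processing notes. Neither RMA's version and settings nor a genome build was found (not given in the sources used here). Of 34760 probe sets, 21640 had 1 gene symbol in the platform annotation, 1321 had several, and 11799 were unnamed here. Of the first, 21553 matched RefSeq by Entrez identifier. For genes with several probe sets (954, 3 of them guidance genes) the highest mean was used. Values were taken to log2 with no pseudocount or further scaling. Members and lists were chosen with earlier results of these data known. Named genes were all members past 2-fold, the members nearest to that threshold and those of the ligand and receptor pairs; other members were added to account for all. Counting was checked on simulated data with planted differences and noise of a chosen size. That check does not measure the noise of these arrays. With 1 array per group there was no test, and the number of arrays limits the precision. Alternatives were median centring, quantile normalization, a loess curve (span 0.3), probe set means, 2 filters and other thresholds. Values were computed in Python 3.11.15 with pandas 2.3.3 and numpy 2.4.6, the loess curve with statsmodels 0.14.6, and figures with matplotlib 3.10.9.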

Additional observations from a re-analysis of the deposited data

How the results depend on the processing

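Under median centring, quantile normalization, loess and probe set means, the 6 guidance genes at least 2-fold lower and Efna1 kept their side of the threshold. Median centring added Sema3f, at 1.01, for a count of 2 higher. At 1.5-fold the counts were 10 higher and 15 lower, and at 4-fold, added after seeing the data, 3 were lower. Of 244 gene values under those 4 scalings and summaries, 243 stayed on their side of 2-fold, the exception being Sema3f. Values short of 2-fold moved by less than 0.1, except that of Sema4d, at -0.63 as a mean of its probe sets. No paired analysis was possible because each group had 1 array; no replicate could be left out. Without detection calls, low levels do not show absence.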
